A study of Mus musculus with 2 samples.

Results

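The genes described here are the mouse cytosolic ribosomal protein genes. They were taken as every row of the count matrices whose symbol was Rpl or Rps followed by a digit, or Rplp0, Rplp1, Rplp2 or Rpsa. Symbols starting with Rps6k, which name kinases, and symbols with -ps, which name pseudogenes, were left out. The name rule found 87 of 28692 genes, and 84 of them had at least 500 UMIs (unique molecular identifiers, 1 per captured mRNA molecule) over both matrices. The 3 left out were Rpl39l with 188 UMIs, Rpl3l with 159 and Rpl10l with 0, and the member nearest to the minimum was Rpl6l with 7933. Of the 84 members, 34 carried Rps symbols (small subunit) and 50 carried Rpl symbols (large subunit), and they lay on 19 chromosomes, with 14 of them on chromosome 7.

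The cytosolic ribosome is built from a small subunit, which reads the mRNA, and a large subunit, which joins amino acids. Each subunit holds ribosomal RNA and 1 copy of most of its proteins, so the cell needs these proteins in nearly equal amounts, and their mRNAs are among the most abundant in growing cells. Most of these mRNAs begin with a 5′ terminal oligopyrimidine (TOP) run, a C followed by further C and T bases, through which the mTOR pathway and LARP1 control their translation. In blood, loss of 1 copy of genes such as Rps19, Rps14, Rpl5 or Rpl11 is linked to anaemia, and maturing neutrophils are known to wind down ribosome production.

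The cells were LSK cells (Lin- Sca1+ Kit+ bone marrow cells, a stem and progenitor population) from C57BL/6 mice, infected with a GFP retrovirus. In the control group the virus carried an shRNA that targets no mouse gene, and in the knockdown group an shRNA against Cxxc5, which encodes a CXXC zinc finger protein. GFP-positive LSK cells of both groups were sorted, then grown with 20% serum, 10 ng/ml GM-CSF and 10 ng/ml SCF and collected on day 3, when 5 samples of a group were pooled into 1 droplet library. There was thus 1 library per group and no replicate, so no difference between groups was tested. Every interval below is a 95% interval that covers counting error only and treats UMIs as independent. Anything else that differed between the pools cannot be told apart from the shRNA.

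The control library held 2925 barcodes and 49333454 UMIs, of which 2912 cells with a median of 17197 UMIs were kept, and the knockdown library held 6015 barcodes and 62910229 UMIs, of which 6004 cells with a median of 10599 were kept. Only 26 barcodes occurred in both. Cxxc5 itself was at 9.38 CPM (UMIs of a gene per 1e+06 UMIs) in the control library and 1.16 CPM in the knockdown library. Cells were divided by summed marker genes into 7 gates, in the order class II dendritic-like, mast and basophil-like, late neutrophil-like, early neutrophil-like, monocyte-like, granule protease progenitor-like and a remaining gate. The gates are ranges of a marker score, and between 0.150% and 14.8% of a library's cells lay within 1.5-fold of a given marker limit. The monocyte-like gate also held granule protease markers at 8069 CPM in control and 8504 CPM in knockdown. The remaining gate held stem and progenitor markers (305 and 275 CPM), megakaryocyte markers (438 and 215 CPM) and erythroid markers (249 and 103 CPM), and was given no cell type name. Lymphoid and stromal markers stayed under 100 CPM in every gate of both libraries.

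To show what the start of a ribosomal protein mRNA looks like, 40-base windows around the annotated start are printed. Each holds 20 bases before the start and 20 from it on. The genes are some of the members named below, beside textbook TOP genes. They do not stand for all members: Rps7, Rpl10, Rpl6 and Rpl36al, also named below, had no run of the kind marked here. Sequences are from RefSeq, build GRCm38.p6, 5′ to 3′ on the gene's strand. Capitals mark a C followed by at least 6 C or T bases that begins within 5 bases of the annotated start, or, where the start base itself is a C followed by at least 4 such bases, the whole run that holds it.
Rps6 (chr4:86857348-86857387, minus): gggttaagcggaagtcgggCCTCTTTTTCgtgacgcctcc
Rpl13a (chr7:45128726-45128765, minus): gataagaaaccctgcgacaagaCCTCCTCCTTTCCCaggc
Rpl35 (chr2:39005112-39005151, minus): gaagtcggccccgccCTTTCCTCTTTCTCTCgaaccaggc
Rpl15 (chr14:18270967-18271006, minus): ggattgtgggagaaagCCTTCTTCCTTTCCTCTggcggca
Rps27 (chr3:90213629-90213668, minus): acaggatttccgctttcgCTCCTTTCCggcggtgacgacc
Rps27rt (chr9:114982720-114982759, minus): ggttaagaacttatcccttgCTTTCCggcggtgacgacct
Rps27l (chr9:66946066-66946105, plus): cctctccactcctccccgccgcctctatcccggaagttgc
Rps19bp1 (chr15:80264287-80264326, minus): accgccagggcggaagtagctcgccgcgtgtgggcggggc

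Rps27 and its retro copy Rps27rt share the bases that follow the run. Rps27l is a diverged paralogue that p53 is known to induce, and Rps19bp1 encodes a binding protein of Rps19 and no subunit. Neither had a run that met these rules. In the Rps27l window the longer C and T runs begin more than 5 bases before the annotated start. The table held windows for 63 of the 84 members, 74 windows in all. Read on the transcript's strand, a C at the annotated start itself followed by at least 4 pyrimidines was present in 14 of the 74 windows, or 18.9%, against 2.51% of the 32851 windows of the whole table. The looser search, with at least 6 pyrimidines beginning within 5 bases, found 23 windows, or 31.1%, against 6.48%. Annotated starts can lie several bases from the true start, so a window without a run says nothing of the mRNA.

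Ribosomal protein mRNAs made up 29.9% of all UMIs in the control library (29.84% to 29.87%) and 29.6% in the knockdown library (29.56% to 29.58%), a difference of -0.29 percentage points. The median cell gave 29.5% in control (quartiles 26.9% and 33.0%) and 29.2% in knockdown (quartiles 27.2% and 32.0%). Single cells ran from 5.98% to 53.3% in control and from 6.17% to 55.3% in knockdown. The SD between cells was 6.35 points in control and 5.86 points in knockdown, while counting alone would give 0.41 and 0.49 points, so cells of 1 library differed far more than the libraries did. The small-subunit genes held 44.8% of the ribosomal protein UMIs in control and 44.7% in knockdown.

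Gates differed in their ribosomal protein share, and in both libraries they fell in the same order. The late neutrophil-like gate, marked by secondary granule genes such as Ltf and Camp, was lowest, at 22.6% in 385 control cells and 21.2% in 567 knockdown cells. The early neutrophil-like gate, marked by S100a8 and S100a9, stood at 28.0% (527 cells) and 27.8% (1039 cells). The granule protease progenitor-like gate, which expresses Elane and Mpo and was the largest gate, stood at 30.1% (1205 cells) and 29.8% (3132 cells). Above it came the monocyte-like gate at 31.8% and 31.7%, and the class II dendritic-like gate at 34.1% and 33.6%. The mast and basophil-like gate reached 36.8% (99 cells) and 35.5% (175 cells), and the remaining gate was highest at 38.0% (187 cells) and 37.6% (355 cells).

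Quartile ranges of cells overlapped between most neighbouring gates, and those of the lowest and the highest gate lay apart. In control, cells of the late gate had quartiles of 18.5% and 26.0%, and cells of the remaining gate 34.9% and 44.4%. Cells with more than 40% ribosomal protein UMIs made up 50.3% of the control remaining gate and 43.4% of the control mast gate, against 0.519% of the control late gate. In knockdown the quartiles were 16.9% and 24.9% in the late gate and 33.7% and 43.8% in the remaining gate. The small-subunit part of the ribosomal protein UMIs stayed between 44.5% and 46.0% in every gate of both libraries.

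**Figure D1:**
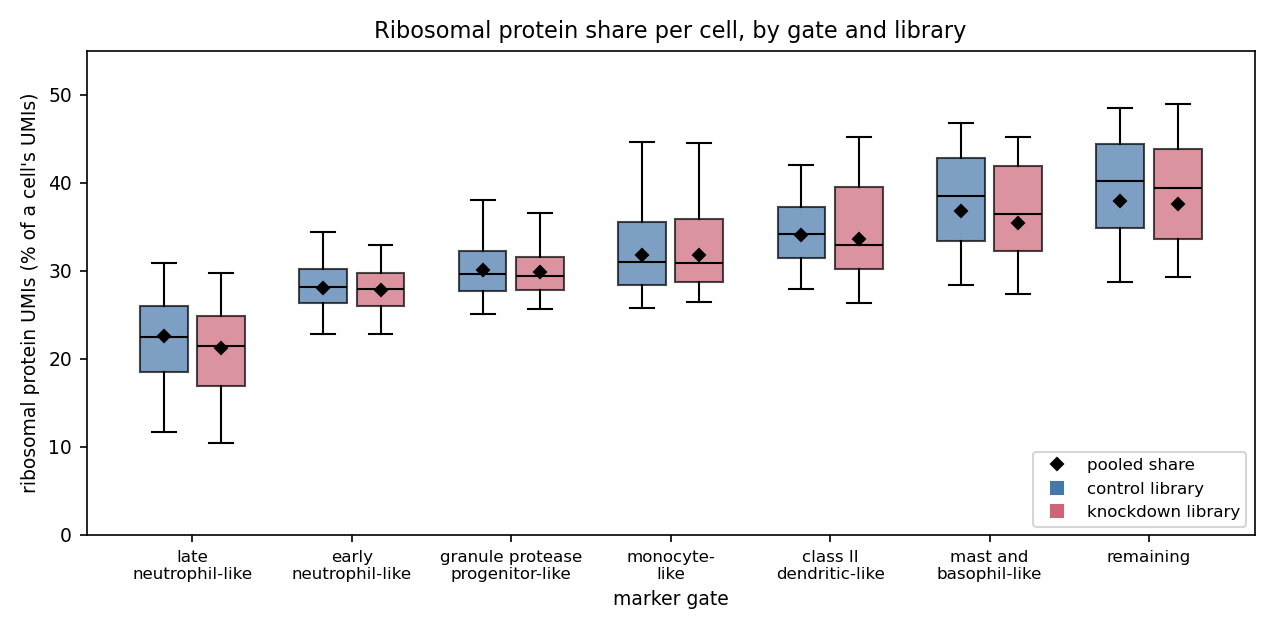
Ribosomal protein share of each cell's UMIs (vertical axis, percent) in 7 marker gates (horizontal axis) of the control and knockdown libraries. Boxes give median and quartiles of cells, whiskers the 5th and 95th percentiles and diamonds the pooled share, which rises from 22.6% and 21.2% in the late neutrophil-like gate to 38.0% and 37.6% in the remaining gate.

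Within a gate the knockdown library was close to the control library. The pooled share was lower in knockdown in 7 of 7 gates, and in the monocyte-like gate the interval of the log2 ratio included 0 (-0.0032 to 0.0021). The widest gaps were -1.36 points in the late neutrophil-like gate, a log2 ratio of -0.09 (-0.094 to -0.086), and -1.36 points in the mast and basophil-like gate, a log2 ratio of -0.05 (-0.060 to -0.048). In the early neutrophil-like, granule protease, class II, monocyte-like and remaining gates the gap was between -0.44 and -0.01 points. Between median cells the gap was wider in the class II gate (-1.26 points), the mast and basophil-like gate (-2.03 points) and the remaining gate (-0.75 points), and -1.07 points in the late gate. The knockdown class II gate also carried early neutrophil markers at 6387 CPM, against 496 CPM in the control gate. When cells were thinned to 5000 UMIs each the class II gate was no longer lower, with double marker limits the monocyte-like gate was not, and without the cells of most UMIs neither was. Whether these gaps exceed what 2 pools of 1 group would show cannot be told with 1 library each.

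Depth per cell differed between the libraries, and over all cells of a library the ribosomal protein share was lower in deep cells than in shallow ones. In control it was 31.7% in the 115 cells under 5000 UMIs and 29.3% in the 1043 cells of 20000 UMIs or more, and in knockdown 30.8% in 641 cells and 29.2% in 63 cells. The late neutrophil-like gate went the other way: from the shallowest to the deepest bin it gave 22.1%, 21.7%, 21.8%, 23.6% and 23.0% in control, and 18.7%, 20.8% and 21.9% in knockdown up to 15000 UMIs. The granule protease progenitor-like gate had no steady fall. From 5000 UMIs on it gave 29.9%, 31.8%, 31.1% and 29.7% in control. In knockdown it gave 29.4%, 31.1%, 29.8%, 29.0% and 29.3% from the shallowest to the deepest bin. The remaining gate gave 41.5% from 5000 to 10000 UMIs and 33.6% from 20000 on in control. In knockdown it gave 41.1% under 5000 and 34.3% from 10000 to 15000 UMIs. The monocyte-like gate gave 33.8% from 5000 to 10000, 37.0% from 10000 to 15000 and 30.1% from 20000 on in control. In knockdown it fell from 36.3% under 5000 to 29.4% from 15000 to 20000. From 5000 to 10000 and 10000 to 15000 the mast gate gave 39.2% and 38.4% in control and 38.7% and 33.2% in knockdown. Thinning to 5000 UMIs per cell left out the 115 and 641 shallower cells. The shares over all other cells were then 30.1% in control and 29.7% in knockdown, a log2 ratio of -0.0214. Among cells of 8000 to 16000 UMIs, 810 in control and 4025 in knockdown, the log2 ratio was -0.0575, against -0.0140 over all cells. With the gate shares of the knockdown library set to those of the control library it was -0.0186. Over all cells the share was also lower in cycling cells. At 5000 UMIs, control cells with 0 UMIs of 6 proliferation genes gave 33.2% and those with 3 or more gave 29.5%, and knockdown cells gave 31.3% and 29.4%. In the late gate the order was reversed, with 20.5% in 29 cells and 22.4% in 243 cells in control and 18.8% in 26 cells and 21.3% in 341 cells in knockdown. In the early gate the values were 30.2% and 27.9% in control and 27.9% and 27.7% in knockdown. The part of depth and cycling in the gaps between gates was not tested.

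Along neutrophil maturation the ribosomal protein share fell in steps. Cells of the early and late neutrophil-like gates were ordered by UMIs of the late markers Ltf, Camp, Ngp, Lcn2, Ly6g and Cd177 per 10000 UMIs. In control the pooled share was 28.2% under 10 late marker UMIs and 27.4% from 10 to 60. It then went to 25.6%, 24.4%, 20.3% and 18.4% with bounds at 150, 300, 500 and 700, and to 15.0% from 700 on. In knockdown the same bins gave 28.2%, 26.8%, 25.2%, 23.3%, 19.9%, 16.9% and 13.1%. Every step was downward in both libraries, and the last bin held 25 control and 76 knockdown cells.

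Granule transcripts took up a growing part of the total along this order. Early and late neutrophil markers were 1.97% of UMIs in the first control bin and 32.4% in the last, and 1.69% and 33.4% in knockdown. With those markers and mitochondrially encoded genes taken out of the total, the control share was 30.0% in the first bin, 30.0% in the bin from 150 to 300 and 23.1% in the last. The knockdown share was 29.9%, 27.8% and 20.5% in these bins. The control values thus stayed between 29.0% and 30.0% over the first 4 bins and dropped to 27.0% from 300 late marker UMIs on, while those of the knockdown library dropped in every bin. The median cell held 5351.5 ribosomal protein UMIs in the first control bin and 1501 in the last, and 3003 and 884 in knockdown, beside a fall of its total UMIs from 18798.5 to 10348 and from 10681 to 6571.

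**Figure D2:**
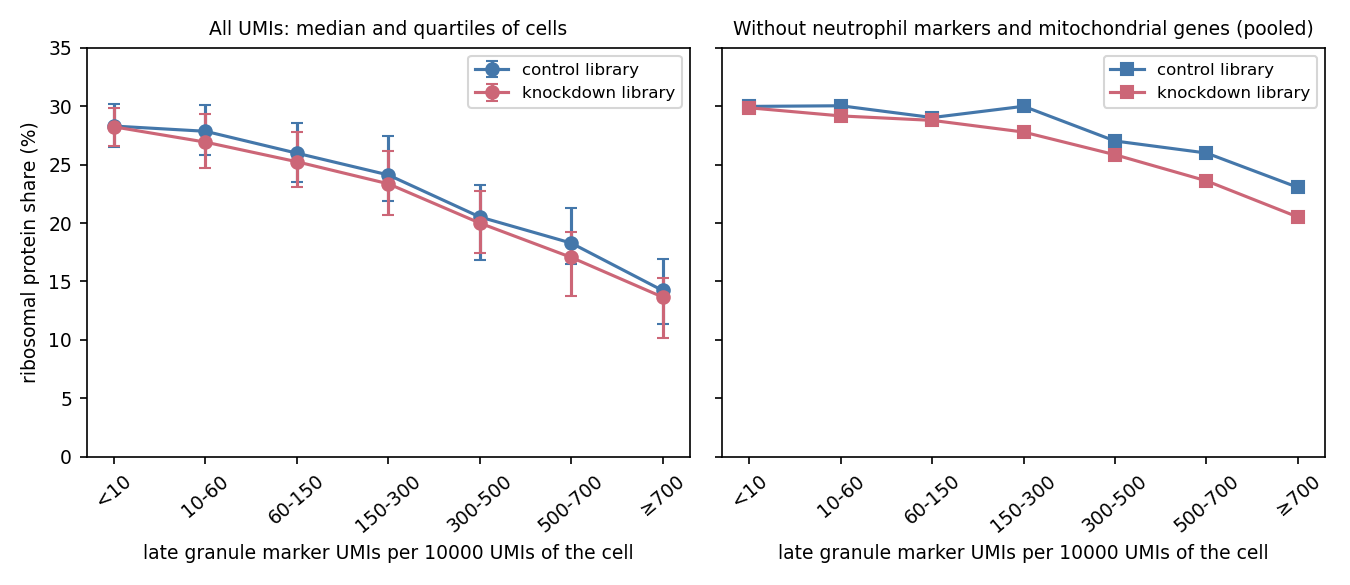
Ribosomal protein share (percent) of early and late neutrophil-like cells against late granule marker UMIs per 10000 UMIs, by library. The left panel gives the median and quartiles of cells over all UMIs, the right panel the pooled share without neutrophil markers and mitochondrially encoded genes, which starts at 30.0% and 29.9% and ends at 23.1% in control and 20.5% in knockdown.

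The late gate was then set against the granule protease progenitor-like gate gene by gene. The summed share differed by a log2 ratio of -0.42 in control and -0.49 in knockdown. Without gate markers and mitochondrially encoded genes in the total these became -0.16 and -0.22. Gate markers held 18.2% and 18.7% of the late gate's UMIs. In control 68 of 84 members were at least 1.2-fold lower in the late gate, where 64.7% of all genes of at least 50 CPM were lower, and in knockdown 76 of 84, where 63.4% were. Of the members, 0 were 1.2-fold higher in control, where 17.4% of all genes were, and 0 in knockdown, where 18.6% were. The members' median log2 ratio was -0.43 in control and -0.53 in knockdown, beside -0.55 and -0.51 over all genes, so the members' counts were above the background share of this comparison while their medians were close to those of all genes.

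Members did not fall evenly. Rps27l had 1454 CPM in the protease gate and 545 CPM in the late gate in control, and 1459 and 545 CPM in knockdown, a log2 ratio of -1.42 in both libraries (-1.47 to -1.36 in control and -1.48 to -1.36 in knockdown). Its parent Rps27 went from 3003 to 2053 CPM and from 2979 to 1887 CPM, a smaller fall. Rps19bp1, of nucleolar rather than ribosomal function, had log2 ratios of -1.50 (-1.72 to -1.28) and -1.26 (-1.46 to -1.07). Rpl36, a large-subunit protein, fell from 2084 to 1074 CPM (-0.96) and from 1998 to 1006 CPM (-0.99). By the mean of both libraries the next were Rplp1 of the stalk that recruits elongation factors (-0.80 and -0.97) and Rpl12 at the base of that stalk (-0.81 and -0.93). These 5 genes stood furthest below the median member by that mean. In a single library Rpl7l1 in control (-0.94) and Rps27rt in knockdown (-0.98) lay below Rplp1 and Rpl12.

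At the other end was Rps27a, which encodes ubiquitin fused to a small-subunit protein. It had 5375 CPM in the protease gate and 5792 CPM in the late gate in control (log2 ratio 0.11, interval 0.09 to 0.13), and 5412 and 5457 CPM in knockdown (0.01, interval -0.01 to 0.03). Its values over the 7 gates ran from 5375 to 6548 CPM in control and from 5412 to 6552 CPM in knockdown, with the protease gate lowest and the remaining gate highest in both. Rpl6l (-0.14 and -0.19), Rps4x, the X-linked gene of a small-subunit protein (-0.13 and -0.20), Rpl9 (-0.17 and -0.23) and Rpl39 (-0.19 and -0.22) came next. Rps27a shared 92.5% of its 3′-end sequence with other annotated copies, so its count may be split among those that were also counted.

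**Figure D3:**
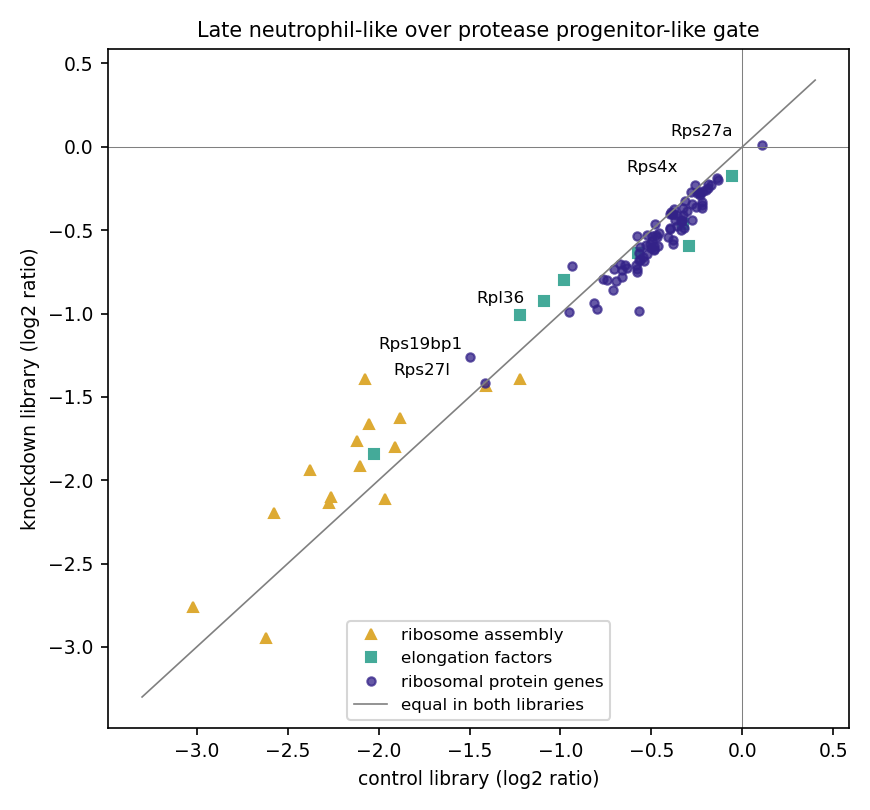
Log2 ratio of the late neutrophil-like gate over the granule protease progenitor-like gate, control library on the horizontal and knockdown library on the vertical axis. Points are the 84 ribosomal protein genes, ribosome assembly genes, and the list of elongation factors and related genes. Most ribosomal protein genes sit near the members' medians of -0.43 and -0.53, Rps27l lies at -1.42 in both, and Rps27a at 0.11 and 0.01.

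Other genes of the ribosome and of translation are given by lists for comparison. Of 15 ribosome assembly genes of at least 50 CPM, which make and process ribosomal RNA and join subunits, 15 were at least 1.2-fold lower in the late gate in both libraries, with medians of -2.10 and -1.92. Npm1, a nucleolar chaperone, went from 2484 to 519 CPM in control and from 2688 to 627 CPM in knockdown. In a list of 8 elongation factors and related genes, 7 were lower in both libraries (medians -0.78 and -0.72). This list includes Eef1e1, its lowest gene (-2.03 and -1.84), and Tpt1, the gene not past 1.2-fold (-0.06 and -0.18). In a list of 29 initiation factors and related genes, which includes Eif4ebp1, 24 and 25 were lower (medians -0.97 and -0.77). Over all genes 64.7% and 63.4% were lower, with medians of -0.55 and -0.51. The medians of the assembly, elongation and initiation lists were each further below 0 than the members' medians of -0.43 and -0.53. The median over all genes was further below 0 than that of the members in control but not in knockdown. Eef1g, a subunit of the factor that reloads Eef1a1, went from 1542 to 660 CPM in control and from 1547 to 769 CPM in knockdown, and Eif1, which helps choose the start codon, from 1270 to 1425 CPM and from 1299 to 1494 CPM.

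Of the subunit genes whose symbols fall outside the name rule, Gnb2l1 (also called Rack1), a scaffold on the small subunit, went from 1756 CPM in the protease gate to 1073 CPM in the late gate in control (-0.71) and from 1789 to 984 CPM in knockdown (-0.86). Fau encodes a ubiquitin-like protein fused to a small-subunit protein, and it had 2835 and 3114 CPM in control (0.14) and 2860 and 2785 CPM in knockdown (-0.04). Rps27a and Fau, which both encode such fusions, thus had late-gate levels within 1.2-fold of those in the protease gate in both libraries. That they share this was seen after their values were known.

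The remaining gate gave the opposite picture. Relative to the granule protease progenitor-like gate, 59 of 84 members were at least 1.2-fold higher there in control, where 14.4% of all genes were, and 60 in knockdown, where 14.2% were. In each library 2 members were lower, where 38.6% and 38.1% of all genes were. The members' median log2 ratio was 0.34 in both libraries, beside -0.17 over all genes in both. Rps4x had 4325 CPM in the protease gate and 6514 CPM in the remaining gate in control (0.59) and 4239 and 6377 CPM in knockdown (0.59). Rps7, of the small subunit, had log2 ratios of 0.58 and 0.50, and Rpl5, which with Rpl11 can bind the p53 inhibitor Mdm2, had 0.54 and 0.51. The 5 members below 0 in both libraries were Rps19bp1 (-0.39 and -0.44), Rps27l (-0.29 and -0.19), Rpl7l1, a ribosome biogenesis factor (-0.19 and -0.35), Rpl36al (-0.02 and -0.04) and Rpl41 (-0.12 and -0.16), which encodes the smallest ribosomal protein. Without gate markers and mitochondrially encoded genes the summed share was 39.8% in the remaining gate and 32.0% in the protease gate in control, and 39.4% and 31.7% in knockdown. In the mast and basophil-like gate 49 members in control and 39 in knockdown were at least 1.2-fold higher than in the protease gate, where 18.1% and 15.4% of all genes were. In the early neutrophil-like gate 8 members in control and 9 in knockdown were at least 1.2-fold lower than in the protease gate, where 32.6% and 29.7% of all genes were.

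Gates and libraries together make 14 pools, and the log2 level of a gene over these pools was set against that of the summed members. Pools of 1 library share that library's preparation and depth, and CPM values of all genes share a total, so the coefficients are descriptions. A member's own UMIs are part of the sum. The median r of the 84 members was 0.97, and 70 of them were above 0.9, against a median of 0.28 over 2451 other genes of at least 50 CPM, of which 77 were above 0.9. The lowest members were Rpl7l1 (0.37), Rps19bp1 (0.58), Rpl6l (0.64), Rps27l (0.65), Rpl41 (0.71) and Rps27a (0.71). Outside the members the closest genes were Eef1b2 (0.996), a subunit of the elongation factor complex, Gnb2l1 (0.993), Rbm39 (0.989), a splicing factor, and Atp5g2 (0.986), a subunit of ATP synthase. Naca, a chaperone of nascent chains (0.974), Ubap2l (0.970), Serpina3g (0.961), Eef1g (0.959), Cd48 (0.959) and Nktr (0.958) completed the 10 highest.

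Levels of single members are given per library over all cells. Counting from the 3′ end gives at most 1 UMI per captured molecule whatever its length, so CPM of different genes compare molecules, apart from differences in capture and mapping. The members spanned 84.8 to 7243 CPM in control, with a median of 3402, and 59.7 to 6784 CPM in knockdown, with a median of 3342. Most lay in a narrow band: 70 of 84 were at or above 2000 CPM in control, and 6 were under 1000 CPM in both libraries. Among the highest in control were Rps2 (7243 CPM, 6745 in knockdown), Rpl32 (6745 and 6784), Rpl41 (6651 and 6722) and Rpl13a (6475 and 6400). The 10 highest held 21.3% of the ribosomal protein UMIs in control. The 5 lowest were Rpl6l (84.8 and 59.7 CPM), Rps27rt (89.3 and 78.9), Rps19bp1 (92.5 and 102.8), Rpl7l1 (142 and 146) and Rpl15 (699 and 642). Rpl15 is the only one of those 5 that is the principal gene of a subunit protein, and its 3′ end had no copy elsewhere in the annotated transcripts.

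Between the libraries the members hardly moved. Over all cells 1 of 84 was past 1.2-fold, Rpl6l, which was lower in knockdown, and 0 were higher. In the same comparison 10.2% of the 8370 genes of at least 500 UMIs were past 1.2-fold, 4.31% higher and 5.85% lower. All genes were not matched to the members on level, as each member had at least 7933 UMIs. Counting error is wider at low counts, and its part in the gap was not tested. The members' median log2 ratio was -0.01, with a range of -0.51 to 0.15, beside a median of 0.03 over all genes, and 75 of the 84 were within 1.1-fold. The medians of the small-subunit and large-subunit symbols were both -0.01. Counting intervals lay above 0 for 28 members, below 0 for 39 and included 0 for 17, which shows the depth behind each gene and not a difference between groups.

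**Figure D4:**
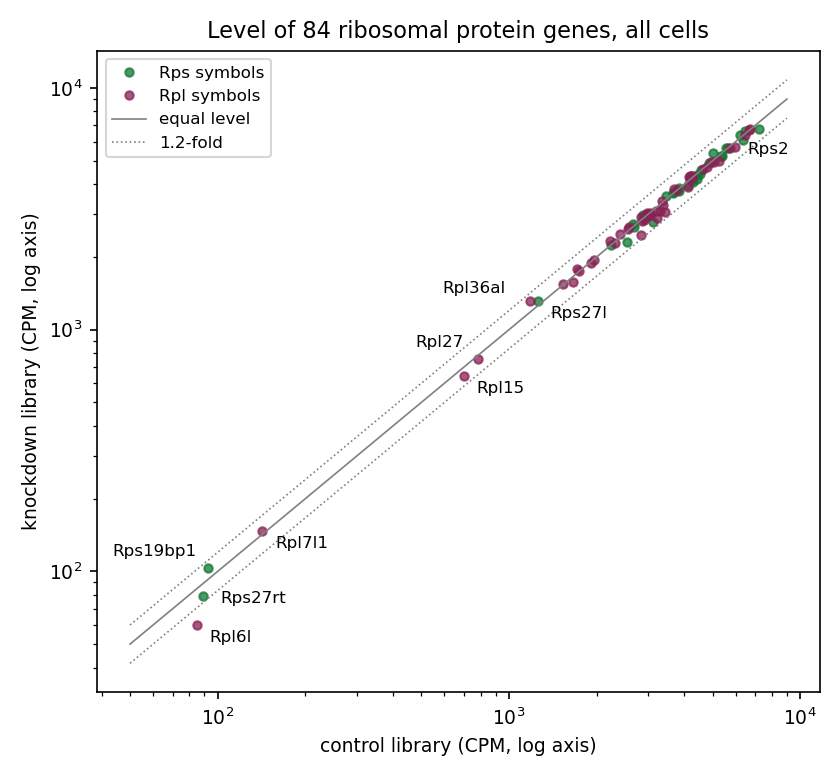
Level of the 84 ribosomal protein genes in CPM over all cells, control library on the horizontal and knockdown library on the vertical axis, both logarithmic, with small-subunit and large-subunit symbols in different colours. The line marks equal levels and the dotted lines 1.2-fold, and Rpl6l (84.8 and 59.7 CPM) is the gene outside them.

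Over all cells 0 members with small-subunit symbols were past 1.2-fold, where 10.2% of all genes were. Rps19, the gene most often altered in Diamond-Blackfan anaemia, had 6192 CPM in control and 6406 CPM in knockdown (log2 ratio 0.05). Rps14, lost in the 5q- syndrome, had 5023 and 5394 CPM (0.10), the third highest ratio. Rps7 had 3117 and 2800 CPM (-0.15, interval -0.16 to -0.14). It was lower in knockdown in 7 of 7 gates, from -0.30 to -0.11, and past 1.2-fold in the late neutrophil-like gate. Rps28 had 2544 and 2298 CPM (-0.15) and was also past 1.2-fold in the late gate.

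Large-subunit genes spread a little further. Rpl5 had 1664 and 1571 CPM (-0.08), and its partner Rpl11 had 3762 and 3797 CPM (0.01). Rpl23a, at the exit of the peptide tunnel, had 2837 and 2453 CPM (-0.21, interval -0.22 to -0.20). Rpl6 had 3431 and 3075 CPM (-0.16), and Rpl10, which joins late and is needed for subunit joining, had 3222 and 2907 CPM (-0.15). All of Rpl23a, Rpl6 and Rpl10 were lower in knockdown in 7 of 7 gates. Of the large-subunit genes that were higher, Rpl35 had 2215 and 2330 CPM (0.07). The stalk genes Rplp0 (5259 and 4969 CPM, -0.08), Rplp1 (5748 and 5654 CPM, -0.02) and Rplp2 (3374 and 3280 CPM, -0.04) were within 1.1-fold.

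Paralogues and copies held the ends of the order. Rpl6l lies at chr10:111125851-111126721 and is annotated as a processed pseudogene. Its 3′ end shares most of its sequence with Rpl6 and other copies. It had 4176 UMIs in control and 3754 in knockdown, 84.8 and 59.7 CPM, a log2 ratio of -0.51 (-0.57 to -0.44). It was lower in knockdown in 7 of 7 gates, from -0.72 to -0.19. Rps27rt, an intronless copy of Rps27 on chromosome 9, had a log2 ratio of -0.18 (-0.24 to -0.12). It was also lower in 7 of 7 gates, from -0.58 to -0.04, though its intervals in the class II and monocyte-like gates included 0. Rps27 itself had 2904 and 2887 CPM (-0.01). Rpl36al, an autosomal copy of the X-linked Rpl36a, had 1182 and 1314 CPM (0.15) and was higher in 6 of 7 gates, beside 2411 and 2478 CPM (0.04) for Rpl36a. Rps27l had 1255 and 1310 CPM (0.06), Rpl22l1 had 1710 and 1782 CPM (0.06) beside 1527 and 1540 CPM for its parent Rpl22, and Rps19bp1 had a ratio of 0.15 (0.10 to 0.21). With the knockdown cells weighted to the control gate shares, the ratio of Rps27l was 0.03 and that of Rpl36al 0.13.

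Gate by gate, few members were past 1.2-fold between the libraries. In the late neutrophil-like gate 5 members were lower (Rpl6l, Rps27rt, Rps7, Rps28 and Rpl15) and 0 higher among the 83 of at least 50 CPM there in a library, where 7.34% of all genes were lower and 12.1% higher, and the median of the members was -0.09 beside 0.05. Rps19bp1, which was under that minimum at 37.6 CPM in control and 48.5 CPM in knockdown, had a log2 ratio of 0.37. In the mast and basophil-like gate 2 were lower (Rps27rt and Rpl10) and 0 higher, where 12.3% and 20.6% of all genes were, with a median of -0.05 beside 0.04. In the class II gate, which has 64 and 65 cells, 2 were lower (Rps27rt and Rpl7l1) and 0 higher, where 17% and 18.5% of all genes were. The intervals of both members included 0 there (-0.92 to 0.18 and -0.84 to 0.16).

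In the remaining gate 2 were lower (Rpl6l and Rps27rt) and 0 higher, where 7.21% and 6.93% of all genes were. In the granule protease progenitor-like gate Rpl6l was lower and 0 members were higher, where 2.41% and 1.11% of all genes were. The same held in the monocyte-like gate, where 4.81% and 2.71% of all genes were, and in the early neutrophil-like gate, where 5.08% and 4.11% were. Rpl6l was thus past 1.2-fold in 5 gates and Rps27rt in 4, including the class II gate, where its interval included 0. Across gates, 25 members were lower in knockdown in all 7, 0 were higher in all 7 and 59 were mixed. Where every gate reached 50 CPM in either library, 25 of 83 members (30.1%) and 8.81% of 1635 genes were lower in all 7, and 0 of 83 members and 11.7% of genes were higher in all 7. The 7 gates of a library share its preparation, so these signs are not independent.

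**Figure D5:**
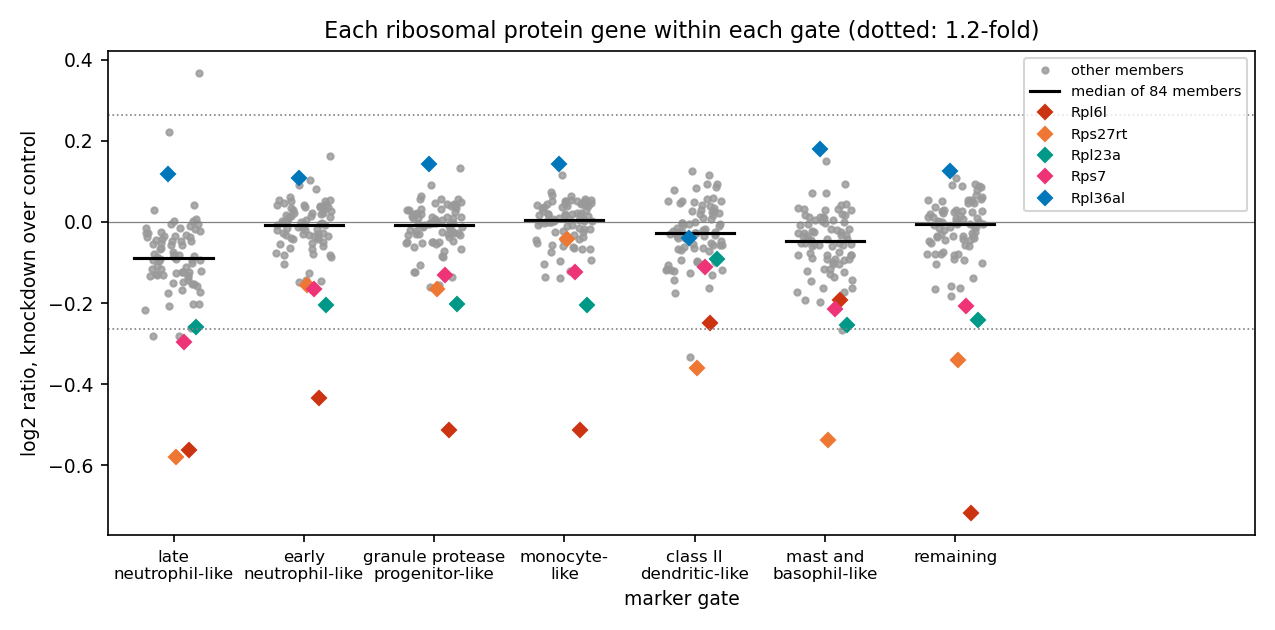
Log2 ratio of knockdown over control for each of the 84 ribosomal protein genes (points) within each of 7 gates, with the median as a bar and 1.2-fold as dotted lines. Rpl6l lies below 0 in every gate, from -0.72 to -0.19, and Rpl36al above 0 in 6 of 7.

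Many members have near-identical copies in the genome, and reads that fit several copies may be lost or split. In the last 500 bases of each transcript, 35 members shared at least 50% of their 60-base words with another annotated gene, 29 shared some and 20 shared none. The median log2 ratio between the libraries was -0.02, 0.00 and 0.01 in these 3 sets. Rpl10 shared 100% with 12 other genes, Rpl23a 89.1%, Rps27rt 90.8%, Rpl6l 74.1%, Rpl36al 66.9%, Rps7 47.6% and Rpl6 30.4%. The counts of these genes are therefore uncertain, and the part of shared sequence in their ratios was not tested. Not all of the annotated genes that share words have a row in the matrices. Rps19bp1 and Rpl15 shared none, with ratios of 0.15 and -0.12.

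In the companion lists few genes were past 1.2-fold between the libraries over all cells. Over all genes 10.2% were, with a median log2 ratio of 0.03. The 18 ribosome assembly genes had a median of 0.15. Of them 1 was past 1.2-fold, Mybbp1a, a nucleolar protein, at 94.0 and 115.7 CPM. Of the 29 genes of the initiation list and the 8 of the elongation list, 0 were past 1.2-fold, with medians of 0.07 and 0.02. Fau had 2977 and 2939 CPM (-0.02). Of the 6 regulators of TOP mRNAs, which include Larp1 and Mtor, and the 3 p53 genes, 0 were past 1.2-fold, with medians of 0.08 and -0.14.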

How the data were processed

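Both libraries were made with the 10x Chromium 3′ kit version 2. Cell Ranger 2.1.1 and build mm10 are named in the submitters' processing notes, and no annotation release is given in the sources used here. Each deposited matrix holds raw UMI counts per gene and cell barcode, with no normalization by the authors. Cells with at least 500 genes and at most 10% mitochondrially encoded UMIs were kept. Doublets were not removed, and an alternative leaves out the cells of most UMIs (0.8% per 1000 cells). Counts were summed per library and gate and given as CPM or percent, with exact Poisson, Clopper-Pearson and conditional binomial intervals (Python 3.11.15, scipy 1.17.1). Gates are limits on summed marker UMIs per 10000 (10 for class II and mast, 4 for monocyte, 60 for the others), placed on the marker distributions without looking at ribosomal values. With 1 library per group, a 1.2-fold difference stands in for a test. The scripts were tested on simulated data. Within gates and between them, genes of at least 50 CPM in either pool were used. The shares of all genes given beside the members are not matched on level.

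Genes named are the members of highest and lowest level, of highest and lowest ratio between libraries and between the late and protease gates, paralogues and non-subunits, known disease genes, the 10 genes most alike over pools, and up to 4 of each companion list; Rps28 and the other members past 1.2-fold in a gate, and those named in the remaining gate, were chosen after their values were seen. Some genes that the rule names are not reported here. Members, lists and gates were chosen with earlier results of these data known. Shared 3′-end words come from GENCODE M21 transcripts. Alternatives covered the denominator, depth, cell filter, gate limits and make-up, member minimum, fold and scaling.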

Additional observations from a re-analysis of the deposited data

Results flagged for a closer look

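The matrices also hold 16 rows with ribosomal protein pseudogene symbols (-ps), which were left out of the members. Their UMIs are in the totals above, and those of at least 500 UMIs count among all genes. They are listed here because such rows carried UMIs: 40314 in the control library and 41606 in the knockdown library, or 0.0818% and 0.0662% of all UMIs. Of the 16 rows, 15 had UMIs, and all 15 had a lower CPM in the knockdown library, while the median log2 ratio over all genes was 0.03. Some of these rows were near 0, such as Rpl9-ps1 (4 UMIs in control and 1 in knockdown), Rpl21-ps4 (4 and 4) and Rpl7a-ps3 (16 and 18). Their direction is within counting error. The highest rows were Rps12-ps3 at 291 CPM in control and 241 CPM in knockdown (log2 ratio -0.28), Rpl23a-ps3 at 159 and 122 CPM (-0.38) and Rpl10-ps3 at 81.3 and 63.6 CPM (-0.35). Rpl23a and Rpl10, whose 3′ ends share 89.1% and 100% of their words with other genes, were among the 6 members of lowest ratio (-0.21 and -0.15). Other members with -ps rows moved less. Rps12, with 96.8% of its words shared, had a ratio of -0.01. Those of Rpl9, Rpl27, Rps18, Rpl7a and Rps26 were -0.09, -0.06, -0.03, 0.01 and 0.04. Reads of a gene and of its processed copies cannot be told apart where the sequence is shared, and whether these rows hold transcripts of the pseudogenes was not tested.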

How the results depend on the processing

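No paired analysis was possible because each group has 1 library. The log2 ratio of the summed share between libraries (-0.0140) was below 0 in all alternatives run: -0.0192 without gate markers and mitochondrially encoded genes, -0.0214 at 5000 UMIs per cell, -0.0575 in cells of 8000 to 16000 UMIs, -0.0186 at the control gate shares and -0.0108 from medians of cells. The count of members past 1.2-fold (1) became 2 at 5000 UMIs per cell (17.5% of all genes), 8 in cells of 8000 to 16000 UMIs (4 higher, 4 lower; 49.8% of all genes), 3 with no minimum of UMIs, which adds Rpl3l and Rpl39l, and 9 at 1.1-fold (2 higher, 7 lower; 34.3% of all genes). The median of the members (-0.0073) became -0.0433 in cells of 8000 to 16000 UMIs and 0.0067 relative to the members' own sum. The log2 ratio of the late over the protease gate was -0.417 in control and -0.492 in knockdown. It became -0.156 and -0.223 without markers, -0.441 and -0.505 at 5000 UMIs, -0.496 and -0.468 in cells of 8000 to 16000 UMIs, and -0.422 and -0.502 without the cells of most UMIs, an alternative added after seeing the data. With lower gate limits it was -0.372 and -0.449, and with doubled limits -0.471 and -0.553. In cells of 8000 to 16000 UMIs the fall was larger in control, the reverse of the other alternatives. The number of gates lower in knockdown was 6 at 5000 UMIs and with doubled limits and 5 without the cells of most UMIs. Removing markers changes the total by construction; the cause of the other shifts was not tested. The depth per gene leaves counting error far below the spread of cells, but 1 library per group leaves no estimate of the spread between pools.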
